A study of Caenorhabditis elegans with 2 samples.

Results

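The cct genes encode the subunits of CCT, also called TRiC, the chaperonin of the eukaryotic cytosol. The complex is a pair of stacked rings, each built from 8 different subunits, and it folds new proteins inside a closed chamber with energy from ATP. Actin and tubulin are its best known clients, and proteins with WD repeats such as the mitotic regulator Cdc20 also need it. In Caenorhabditis elegans, loss of CCT subunits disturbs microtubules and embryonic development. The 8 cct genes of the Ensembl gene models were taken by name, among 19985 protein-coding genes, and all 8 were found. They lie on chromosome II (cct-1, cct-2, cct-3 and cct-4), chromosome III (cct-5 and cct-6), chromosome IV (cct-8) and chromosome V (cct-7).

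The measurement is chromatin immunoprecipitation followed by sequencing (ChIP-seq), which recovers DNA bound by a protein and calls places with an excess of recovered fragments as peaks. Its target was the homeobox protein CEH-91, read through an anti-GFP antibody in whole young adults of strain RW12305, with genotype st12305[ceh-91::TY1::EGFP::3xFLAG] III, an insertion made by CRISPR at the ceh-91 gene itself. Worms were bleached for eggs, held as starved L1 larvae for a common start, and collected at an age of 62.5 hours. The 2 samples are biological replicates of this 1 group, they share 1 control alignment, and the labels do not say whether they came from separate cultures. There is no second genotype, stage or treatment to compare with, so every value below is a description of where and how strongly peaks were called. Whole worms mix all tissues, so the cells in which a promoter was bound cannot be told from these lists.

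The authors deposited a ranked and a thresholded peak list, in the file layout known as bed, for either replicate alone and for a conservative and a pooled comparison over both, 8 lists in all. The thresholded lists held 1612 peaks in the conservative comparison of the replicates, 1716 in the pooled comparison, 1180 in replicate 1 and 974 in replicate 2. Ranked lists held 35497 to 53026 peaks. Below, listed means present in a thresholded list. The signal of a peak is the authors' own value on a scale that depends on each library, so ranks are within a list. The irreproducible discovery rate is low where a peak ranks high in both inputs of its list, and its global form was at most 0.01 in every listed peak. Its lowest possible value in these lists is 1e-05. A peak was given to a gene when its summit lay between 1000 bp before and 200 bp past one of its transcript starts, as annotated. Many worm transcripts are trans-spliced, so an annotated start can lie downstream of the place where transcription begins. Coordinates are 1-based on ce11, the same assembly as WBcel235. The lists hold no reads, so depth is unknown.

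The DNA at 5 of the summits is shown first, because these promoters differ widely in signal and carry related short words. The sequences are from the RefSeq copy of WBcel235, on the strand of the cct gene, 5′ to 3′ towards its start, from 40 bases before the conservative summit to 90 bases after it. Capitals mark the pair of heat shock units described below and, in cct-1, cct-4 and cct-3, a stretch of the form GGGTCTCGNCACGA. The windows are chrIV:1094246-1094376 (minus strand) for cct-8, chrIII:4508492-4508622 (minus) for cct-5, chrII:8185133-8185263 (plus) for cct-1, chrII:8283405-8283535 (plus) for cct-4 and chrII:2232663-2232793 (plus) for cct-3. They hold no annotated exon.
cct-8: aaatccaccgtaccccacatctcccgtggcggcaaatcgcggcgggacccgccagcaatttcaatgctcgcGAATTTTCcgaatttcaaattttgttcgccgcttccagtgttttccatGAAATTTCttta
cct-5: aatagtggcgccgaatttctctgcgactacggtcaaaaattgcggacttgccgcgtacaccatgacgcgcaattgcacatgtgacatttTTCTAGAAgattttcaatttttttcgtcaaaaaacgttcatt
cct-1: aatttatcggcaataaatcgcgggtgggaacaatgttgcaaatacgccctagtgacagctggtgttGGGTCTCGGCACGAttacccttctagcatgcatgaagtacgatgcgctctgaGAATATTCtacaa
cct-4: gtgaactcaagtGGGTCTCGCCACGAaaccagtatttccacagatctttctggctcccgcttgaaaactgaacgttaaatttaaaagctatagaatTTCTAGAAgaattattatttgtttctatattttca
cct-3: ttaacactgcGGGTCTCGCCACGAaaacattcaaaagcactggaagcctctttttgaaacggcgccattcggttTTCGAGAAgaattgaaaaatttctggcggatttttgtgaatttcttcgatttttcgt

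Most cct promoters held a listed peak. In the conservative list, 6 of 8 cct genes had a listed summit in the window, against 7.37% of all protein-coding genes (1473 of 19985) and 14.2% of the 10400 with a ranked summit there. The genes without one were cct-2 and cct-3, which encode the beta and gamma subunits. The pooled list named the same 6 genes (7.65% of protein-coding genes, and 15.3% of those with a ranked summit). Replicate 1 listed 4 of 8 (6.06% and 13.4%), and replicate 2 listed 5 of 8 (5.32% and 11.2%). The 4 genes cct-1, cct-5, cct-7 and cct-8 were listed in all 4 thresholded lists. Every cct gene had a ranked summit in its window in all 4 ranked lists, as did 52% of protein-coding genes in the conservative list, 50% in the pooled one, 45.1% in replicate 1 and 47.7% in replicate 2. The conservative and pooled lists are made from the same reads and give the same signal per peak, so they are not independent of each other.

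The order of signal in the conservative list ran from cct-8 over cct-5, cct-1, cct-7, cct-6 and cct-4 to cct-3 and cct-2. The median signal of the 6 listed cct peaks was 206 (range 92.9 to 511), beside a median of 149 with quartiles of 107 and 231 over all 1473 genes with a listed promoter peak. The cct genes thus spread over most of that range. The peak of cct-8 was stronger than those of 94.4% of these genes and the peak of cct-4 stronger than those of 14.4%. In yeast the alpha, beta, delta and epsilon subunits bind ATP more tightly than gamma, zeta and theta. Each of these sets held a strong peak (cct-5 and cct-8) and a gene with no listed peak (cct-2 and cct-3).

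**Figure D1:**
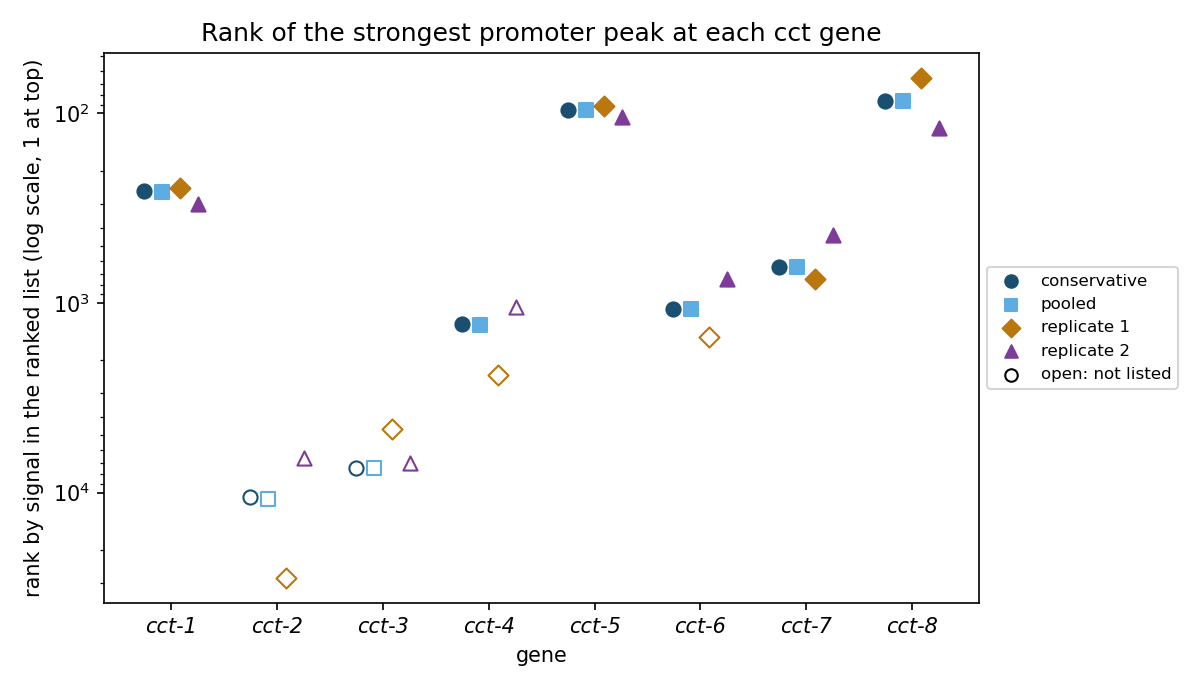
Rank by signal of the strongest promoter peak at each cct gene (y axis, log scale, rank 1 at the top) in the 4 ranked lists (symbols); filled symbols are listed peaks and open symbols are not. The genes cct-5 and cct-8 ranked between 65 and 120 in all 4 lists, while cct-2 ranged from 6566 to 28103.

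The gene cct-8 encodes the theta subunit and had the strongest cct peak. Its peak at chrIV:1094236-1094464 had a signal of 511 in the conservative list and ranked 86th of all ranked and 66th of listed peaks. The signal was 343 in replicate 1 (65th of ranked peaks) and 170 in replicate 2 (120th). The rate was 1e-05, the lowest possible, in all 4 lists, and the summits of the replicates lay 13 bp apart. The summit was 416 bp upstream of the start in the conservative list, 419 bp in replicate 1 and 432 bp in replicate 2.

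The gene cct-5 encodes the epsilon subunit and followed closely. Its peak at chrIII:4508481-4508697 had a signal of 482 and ranked 96th of ranked and 75th of listed peaks. The signal was 298 in replicate 1 (91st of ranked peaks) and 180 in replicate 2 (105th), so cct-5 was above cct-8 in replicate 2 and below it in replicate 1. With 2 replicates that disagree, the order of cct-8 and cct-5 is not settled. The rate was 1e-05 in all lists. The summit lay 468 bp upstream, the farthest of the listed cct peaks, and the replicates placed it 3 bp apart.

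The gene cct-1 encodes the alpha subunit and came after cct-8 and cct-5 in each of the 4 lists. Its peak at chrII:8185109-8185265 had a signal of 261 and ranked 226th of listed peaks, with 166 in replicate 1 and 98.1 in replicate 2. The rate was again 1e-05 in all 4 lists. The conservative summit lay 270 bp upstream of the start, and those of the replicates 255 and 261 bp upstream. The peaks of cct-1, cct-5 and cct-8 were narrow in the conservative list, at 157, 217 and 229 bp. The other 5 cct peaks had the width of 310 bp that 77.9% of listed and 99.3% of ranked peaks share.

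The gene cct-7, for the eta subunit, stood in the middle of the range. Its peak at chrV:1871836-1872145 had a signal of 152 and a rate of 6.7e-05 in the conservative list. Replicate 1 gave a signal of 85.5 at a rate of 0.000467, and replicate 2 gave 77.5 at a lower rate of 1.9e-05. Both replicates listed it, 225 and 254 bp upstream of the start. It ranked 744th of the ranked peaks of replicate 1 and 436th of those of replicate 2.

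For the zeta subunit gene cct-6, the 2 replicates fell on different sides of the threshold. The peak at chrIII:5855841-5856150 had a conservative signal of 107 and a rate of 0.000907. In replicate 1 the signal was 55.6 and the rate 0.118, so the peak was not listed there. In replicate 2 the signal was 54.6 and the rate 0.000871, and it was listed. The summits lay 285 and 298 bp upstream.

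The delta subunit gene cct-4 was listed in the lists over both replicates and in neither replicate alone. Its peak at chrII:8283290-8283599 had a signal of 92.9, with a rate of 0.00404 in the conservative list and 0.00183 in the pooled one. The rate was 0.0598 in replicate 1, at a signal of 45.3. In replicate 2 it was 0.0102, at a signal of 43.8, just above the threshold. The peak is therefore the weakest listed cct peak in signal and the nearest to the threshold in its rate.

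The 2 genes with no listed peak had rates far above the threshold in every list. At cct-3 the conservative peak at chrII:2232548-2232857 had a rate of 0.102, and its signal of 46.8 exceeded 86.1% of ranked peaks. Its rate was 0.666 in replicate 1 and 0.682 in replicate 2, and its summit lay 783 and 912 bp upstream, 129 bp apart. At cct-2 the peak at chrII:8927280-8927589 had a rate of 0.771, and its signal of 42.2 exceeded 80.1% of ranked peaks. It was above 20.8% of ranked peaks in replicate 1 and 82.6% in replicate 2, with summits 60 bp apart. At the other 6 genes the summits of the replicates lay within 29 bp of each other.

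**Figure D2:**
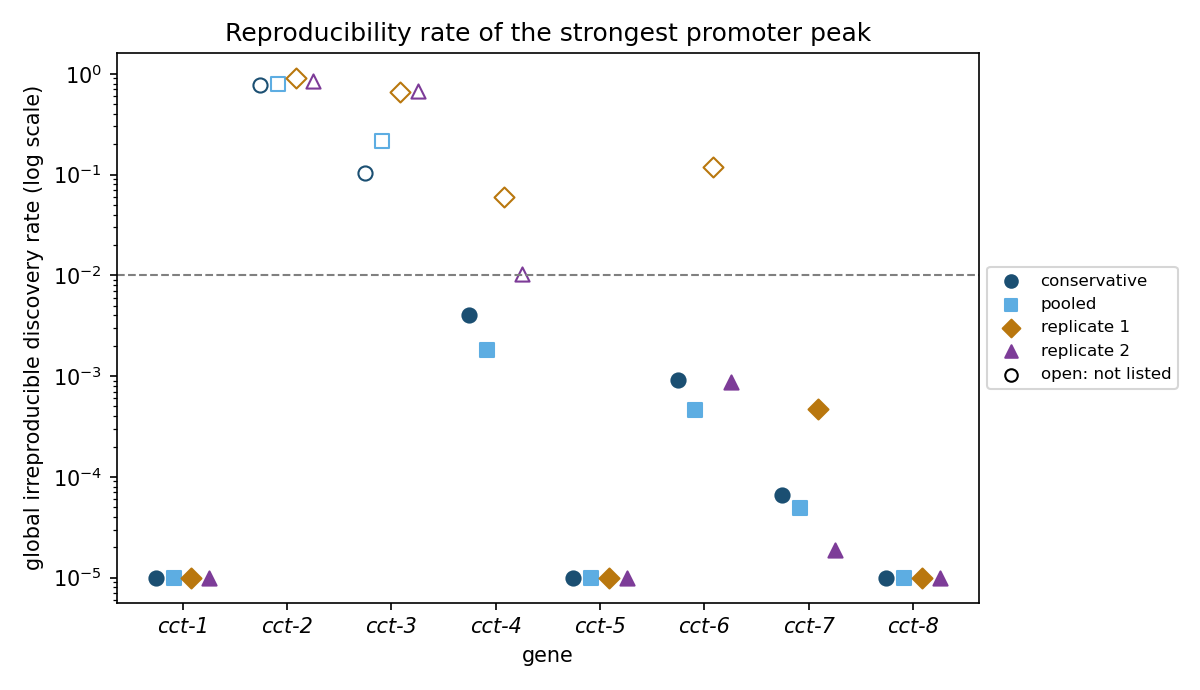
Global irreproducible discovery rate of the strongest promoter peak at each cct gene (y axis, log scale) in the 4 lists (symbols, open where not listed); the dashed line is the threshold of 0.01. The genes cct-1, cct-5 and cct-8 sit at 1e-05 in every list, cct-4 crosses the line between lists with 0.0102 in replicate 2, and cct-2 and cct-3 stay above it.

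A few further summits lay in or near the windows without being listed. A second summit lay upstream of cct-7 in replicate 1 (790 bp, signal 29.5) and in the pooled list (778 bp, signal 21.1). A second one lay 981 bp upstream of cct-8 in replicate 2, with a signal of 7.93, just inside the window. Just outside it were a summit 1036 bp upstream of cct-8 in replicate 1 (signal 25.8) and, in all 4 lists, one 1071 to 1074 bp upstream of cct-1 (40 in the conservative list). Beyond the downstream edge, the nearest was 223 bp inside cct-8 in replicate 1 (signal 19.9). None of these was listed. The nearest listed peak outside a window lay 1382 bp upstream of cct-7.

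The replicates differed in how the cct genes stood to one another. Over the 1612 listed conservative peaks, signal was higher in replicate 1 by a median of 0.74 on the log2 scale (SD 0.40). Some of these peaks repeat the replicate signals of another listed peak, so such sites count more than once. The difference at cct-1 was 0.76, at cct-5 0.73 and at cct-8 1.01, near or above that median. At cct-7 it was 0.14, at cct-4 0.05 and at cct-6 0.03, and only 7.88%, 4.78% and 4.09% of listed peaks had a lower difference. The 3 weaker listed cct peaks therefore had about equal signal in both replicates, where most listed peaks had more in replicate 1. Among the 1242 listed peaks with a signal under 200, 10% had a difference of at most 0.14, the value at cct-7, and cct-4 and cct-6 lie below it. At cct-3 the difference was 0.81 and at cct-2 it was -0.21. With 2 replicates no test of these differences was made.

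**Figure D3:**
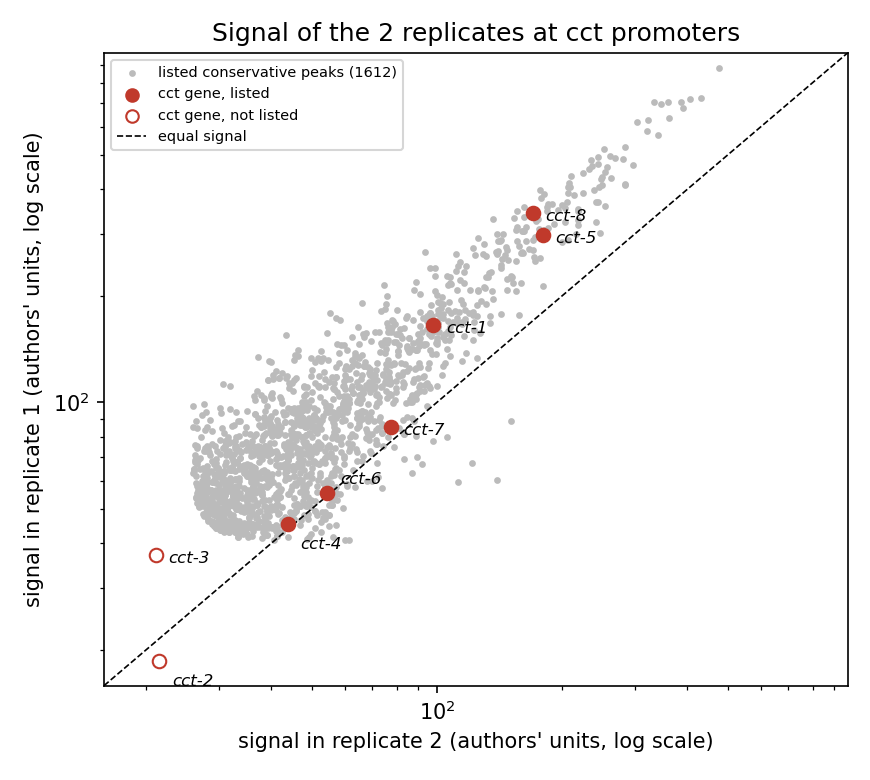
Signal in replicate 1 (y axis) against replicate 2 (x axis), both in the authors' units on log scales, for the 1612 listed conservative peaks (grey) and the 8 cct genes (red, open where not listed); the dashed line marks equal signal. The genes cct-4, cct-6 and cct-7 lie close to the line, while cct-1, cct-5 and cct-8 lie in the main cloud above it.

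Every cct summit also lay in the promoter window of a protein-coding neighbour that is transcribed away from it. The 6 listed summits were shared with mig-5, a Dishevelled gene of the Wnt pathway (cct-1), nst-1, a nucleostemin gene (cct-4), F25F2.1 (cct-5), alh-9, an aldehyde dehydrogenase gene (cct-6), T10B5.4 (cct-7) and Y55F3AR.2 (cct-8). Among all 1114 listed peaks with a protein-coding start in the window, 38.2% had starts on both strands. A peak in such a place cannot be ascribed to one gene or the other from its position.

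For 5 of the 6 listed summits the neighbour's start was the nearer one. The summit at cct-6 lay 22 bp from the start of alh-9 and 309 bp from that of cct-6. At cct-8 it was 205 bp from Y55F3AR.2 and 416 bp from cct-8, at cct-5 273 bp from F25F2.1 and 468 bp from cct-5, and at cct-1 150 bp from mig-5 and 270 bp from cct-1. At cct-7 the summit was 184 bp from T10B5.4, 255 bp from cct-7 and 11 bp inside the short non-coding RNA gene T10B5.13. The exception was cct-4, at 222 bp against 237 bp for nst-1. With each summit given to its nearest start only, 1 of 8 cct genes kept a listed peak, against 4.63% of protein-coding genes.

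The listed and unlisted cct genes differed in the spacing of these neighbours. The starts lay 331 to 741 bp apart at the 6 listed genes, and 1070 bp (cct-3 and F54A3.6) and 1190 bp (cct-2 and B0457.2) apart at the others. A spacing of at most 1000 bp was therefore looked at over the genome, a limit chosen after these values were seen. Of 3749 protein-coding genes (18.8% of all) with a protein-coding start on the other strand within 1000 bp upstream, 19.9% had a listed summit, against 4.48% of the other 16236. All 6 listed cct genes fall among the former, and cct-2 and cct-3 among the latter. Since the limit was set where it separates these same genes, nothing is read from that split of the cct genes. Each summit also counted for every gene whose window held it, so genes with such a neighbour share summits by this rule. How much of the contrast of 19.9% and 4.48% lies in shared summits was not tested.

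**Figure D4:**
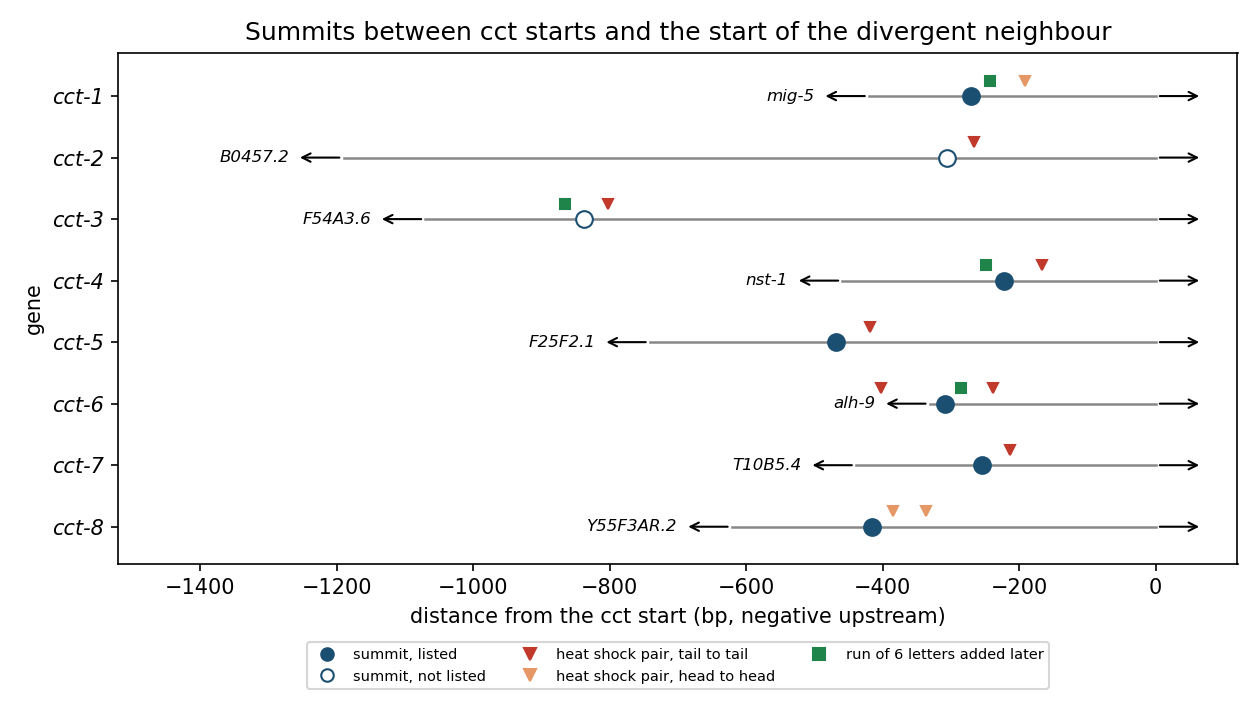
Conservative summits (circles, open where not listed) between each cct start (distance 0 bp on the x axis) and the start of its divergent neighbour (left arrow). Triangles mark pairs of heat shock units in both arrangements, and squares the run of 6 letters GGTCTC, which was added later. Both were searched within 100 bp of the summit, and other words added later are not drawn. In all 8 genes a triangle lies between the summit and the cct start, and the neighbour's start is 331 to 1190 bp away.

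The summit windows of all 8 cct genes held a pair of heat shock units. Heat shock factor binds repeats of GAA in alternating directions, and cytosolic chaperones are among its known targets. In the 100 bp on either side of the summit, TTCNNGAA (tail to tail) was found at 6 genes, of which 4 were listed, and GAANNTTC (head to head) at the other 2. Both words read the same on either strand and were searched on both. TTCNNGAA was in 11.4% of the 1114 listed promoter windows, in 12.8% of 14229 promoter windows of peaks that did not pass, and in 12.2% of 19973 windows of the same length before protein-coding starts. The figures for GAANNTTC were 15.3%, 12.7% and 12.8%. GAANNTTC was thus somewhat more frequent in listed windows and TTCNNGAA somewhat less. At least one of the pair was in 22.8% of listed windows and in 22.7% of those that did not pass.

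The letters and places of the matches were read off these same windows, with no background for their side or distance from the summit. At cct-4, cct-5 and cct-6 the letters were TTCTAGAA, and at cct-2, cct-3 and cct-7 they were TTCGAGAA. All 6 began 34 to 70 bp from the summit on the side of the cct start, and cct-6 had another match, TTCCCGAA, on the other side of the summit. The narrower word TTCNAGAA, written after the matches were seen, was in 7.27% of listed windows and 7.92% of the windows before starts. At cct-8 the matches were GAATTTTC and GAAATTTC, 31 and 79 bp from the summit, and at cct-1 GAATATTC at 78 bp, again on the side of the cct start. The pair was thus present both where signal was highest and at cct-2 and cct-3, where no peak was listed. A match shows letters only and not that a factor was bound.

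Another stretch recurred nearer the summits. The form GGGTCTCGNCACGA was seen in the printed windows of cct-1, cct-3 and cct-4 and then searched on both strands of all windows. It began 26 bp from the summit at cct-1, and 30 and 28 bp on the other side of it at cct-3 and cct-4. It was in 3.41% of listed promoter windows, 0.344% of those that did not pass and 0.18% of windows before starts. Its shorter core GGTCTC was also found at cct-6, and so at 4 of 8 cct genes, against 27.3% of listed windows, 7.84% of those that did not pass and 5.34% of windows before starts. The words GCGCGC and TCTGCG, also tried after seeing sequences, were at 0 and 2 of the cct genes. GCGCGC was in 19.2% of listed windows, 3.21% of those that did not pass and 2.43% of windows before starts. For TCTGCG these shares were 15.9%, 7.96% and 6.29%.

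Other words were absent from the cct windows. On either strand, the homeodomain core TAATTA had 0 matches in the 8 windows. It was in 8.26% of listed windows, 7.6% of those that did not pass and 11.9% of windows before starts. A count of 0 of 8 is near these shares. The E-box word CACGTG, in 4.04% of listed windows, the repeat word GAGAGA, in 18%, and the forkhead word GTAAACA, in 3.14%, also had 0 matches. Their shares of windows before starts were 4.18%, 15.8% and 3.5%, so a count of 0 of 8 says nothing particular here. The GC content of the cct windows was 35.3% to 39.8% at 6 genes, 47.8% at cct-8 and 51.2% at cct-7, beside a median of 38.8% (quartiles 34.8 and 44.3) over listed promoter windows.

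Genes that work with CCT, and other chaperone genes, were looked at by the same rule. Prefoldin, a jellyfish-shaped complex that hands unfolded actin and tubulin to CCT, had 0 of 6 subunit genes listed in the conservative list. Its gene nearest to the threshold was pfd-1, with a signal of 87.8 and a rate of 0.0109, and the pooled list did list it, at 0.00765. The replicates gave pfd-1 a signal of 40.2 and 49.3 at rates of 0.475 and 0.386. With 7.37% of all protein-coding genes listed, a count of 0 of 6 is near the background, so it says nothing particular of prefoldin.

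Among clients and a cofactor, 1 of 5 actin genes, 2 of 15 tubulin genes and 1 of a group of 3 were listed. The background is 7.37% of all protein-coding genes, and counts of 1 or 2 genes say nothing particular of a group. The actin gene was act-2 (chrV:11078501-11078612), with a signal of 250, and 170 and 78.6 in replicates 1 and 2. The tubulin genes were tbb-1 (beta-tubulin, chrIII:10742551-10742816), with 1084, and tba-2 (alpha-tubulin, chrI:12966881-12966990), with 204. The third group held fzy-1 and fzr-1, which encode the WD-repeat activators of the anaphase-promoting complex, and the thioredoxin-like cofactor gene txdc-9. Its listed gene was fzy-1 (chrII:5501001-5501310, signal 150). Of other chaperones, the cytosolic Hsp70 gene hsp-1 (chrIV:17278491-17278661) had 358 and the mitochondrial chaperonin gene hsp-60 (chrIII:1618918-1619185) had 470. All 6 of these genes were listed in both replicates. In total, 6 of the 31 genes in these groups, hsp-60 among them, were listed in the conservative list. That share is above the 7.37% of all protein-coding genes. Of the 24 with a ranked summit in the window the same 6 were listed, against 14.2% of protein-coding genes with one. The groups were chosen with earlier results of these data known, and both genes found among the other chaperones were listed. The difference was not tested, and nothing is read from it. The symbol daf-21 matched no gene of the annotation, no other symbol was tried for it, and the 31 genes do not include it.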

How the data were processed

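ChIP-seq peak lists of 2 biological replicates of 1 group were used. Per the file notes beside the lists, the authors made them on ce11 from the replicates' alignments and 1 shared control alignment. Aligner and caller: not given in the sources used here. Signal per peak, and −log10 values of the global irreproducible discovery rate, were used as the authors deposited them. The deposited score, capped at 1000, and the −log10 q-value were not used. The conservative thresholded list was paired with the ranked list whose first inputs had coordinates from replicate 1 in 58.4% of peaks (0% in the other ranked list, read as pooled).

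Python 3.11.15 with pandas 2.3.3 and NumPy 2.4.6 assigned summits to Ensembl release 115 transcript starts (1000 bp upstream to 200 bp downstream). No peak ended beyond a chromosome of WBcel235. The assignment was tested on simulated data. Named genes were the 8 cct genes, genes sharing their summits, at most 4 listed members per pathway list, and the 3 genes nearest in signal to the strongest cct gene. The members and lists were chosen with earlier results of these data known. Replicate signals of all listed peaks are those of the conservative list's first and second inputs. Motifs were searched in 201 bp around each summit. No significance test was made.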

Additional observations from a re-analysis of the deposited data

How the results depend on the processing

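The count of cct genes with a listed peak depended on how shared summits were handled. With each summit given to its nearest start only, it fell from 6 to 1 (cct-4), and the percent of protein-coding genes from 7.37 to 4.63. At a rate of at most 0.001 it was 5 (without cct-4) against 5.45%. It stayed at 6 with a promoter of 500 bp upstream to 100 bp downstream (5.86%), with 2000 bp upstream to 500 bp downstream (9.27%), with 1 bp of the peak in the window (7.73%) and in the pooled list (7.65%). The lists of single replicates gave 4 to 5 cct genes and 5.32% to 6.06%. Leaving out replicate 2 took cct-2 from above 80.1% of ranked peaks to above 20.8%. Of 63 other values of signal percentile and distance at single cct genes, 19 were counted as moved, all of them with a replicate left out. None was counted as moved in the other promoter windows or the pooled list. The pooled list gives the same summits and signals as the conservative one, so it is no separate check. Distances were not read again with the other windows. At cct-7 the wider promoter took in the stronger peak 1382 bp upstream, from above 98.8% to above 99.2% of ranked peaks. Some of the 19 shifts were no larger than the difference between the replicates. At cct-5 the distance went from 468 to 465 bp, where the replicates lay 3 bp apart. With the narrower promoter cct-3 has no ranked summit. Depth is unknown, so a missing listed peak at cct-2 or cct-3 says only that none was called.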

Other observations

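The surroundings of cct-7 held more listed peaks than its promoter. A stronger peak lay at chrV:1870709-1871018, 1382 bp upstream of the start and within the neighbouring gene T10B5.4, with a signal of 194 and a rate of 2.8e-05. It was listed in all 4 lists, with 115 in replicate 1 and 71.8 in replicate 2. Beyond the end of cct-7, overlapping peaks at chrV:1875515-1875824 (signal 88.0) and chrV:1875722-1876031 (7.94) were listed at a rate of 0.0026 in the conservative list, and neither replicate listed a peak there. Both entries had the same input signals (64.2 in replicate 1 and 30.9 in replicate 2), so they are read as a single site. Over the gene bodies and the 1000 bp past the ends of the other 7 cct genes, no peak was listed in any of the 4 lists.

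By signal in both replicates, the genes most like cct-8 among 874 with 1 listed promoter peak in each were Y55F3AR.2, which shares its peak, egg-1, an egg surface receptor gene needed for sperm entry (329 and 175), and skpt-1 (334 and 162).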
